A study of Mus musculus with 6 samples.

Results

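The genes described here encode the calcium-to-transcription relay of muscle: the MEF2 transcription factors (Mef2a, Mef2c and Mef2d), 3 of the class IIa histone deacetylases that bind them (Hdac4, Hdac5 and Hdac9) and the calcium/calmodulin-dependent kinases of the CaMKII family (Camk2a, Camk2b, Camk2d and Camk2g). They were taken by gene symbol, and all 10 were found among the 23367 gene entries of the deposited table. Each of the 10 also passed the filter on low counts, which left 16882 genes for testing.

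MEF2 proteins bind an A/T-rich DNA element in the control regions of many muscle genes and act there with the myogenic bHLH factors. Class IIa histone deacetylases sit on MEF2 and hold its targets down. When calcium rises, calmodulin activates CaMKII and related kinases, which phosphorylate serines in the deacetylases, and the phosphorylated proteins are bound by 14-3-3 proteins and leave the nucleus. In skeletal muscle this relay is known for coupling nerve activity to contractile, metabolic and acetylcholine receptor genes. CaMKII also has substrates at the sarcoplasmic reticulum and elsewhere in the fibre.

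RNA came from the gastrocnemius, a calf muscle, of wild-type FVB mice, with no treatment or transgene in any group. The 6 libraries represent E18.5 (a pool of 21 embryos of both sexes), PN2 (a pool of 6 males), PN14 (2 libraries, each from 1 male mouse), PN28 (1 male mouse) and adults of 22 weeks (1 male mouse), where E is the embryonic day and PN the postnatal day. The comparisons follow the muscle through the intervals between these stages and over the whole period. Since PN14 alone was replicated, every p-value assumes that the other stages vary as the PN14 pair does, and sex, pooling and sequencing lane cannot be told apart from stage.

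Depth was similar, between 125402932 and 157868359 counts on genes. A level between stages is given as CPM, the part of a gene in the counts of its library, scaled by the trimmed mean of M values (TMM CPM), and a level between genes as FPKM, which is divided by gene length and by the total of the library. TMM matters here: its factors were 1.45 at E18.5 and at PN2 and between 0.714 and 1.01 in the later libraries, while the summed FPKM of 8 muscle fibre markers rose from 22463 at E18.5 to 77906 in the adult. With library size alone the median log2 fold change of all tested genes was -1.08 from E18.5 to adult and -0.66 from PN2 to PN14, against -0.05 and -0.01 with TMM. Called means an adjusted p under 0.05 with a change of 2-fold or more in the edgeR quasi-likelihood test.

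The DNA-binding MADS box is what makes the MEF2 genes a family. The coding sequence that starts it is shown from the start codon, read from the mm9 genome with GENCODE M1 exons, to show how far the mRNAs differ where the proteins are alike. Capitals mark the bases that differ from Mef2c.
Mef2a: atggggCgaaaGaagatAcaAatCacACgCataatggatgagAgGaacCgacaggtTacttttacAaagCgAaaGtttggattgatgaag
Mef2c: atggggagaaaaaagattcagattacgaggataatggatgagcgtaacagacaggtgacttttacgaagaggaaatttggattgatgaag
Mef2d: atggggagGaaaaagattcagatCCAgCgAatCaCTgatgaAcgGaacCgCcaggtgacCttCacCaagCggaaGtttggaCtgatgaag

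The Mef2a stretch spans the junction of exons 1 and 2 of 11 (chr7:74440429-74461731, minus strand), that of Mef2c exons 3 and 4 of 12 (chr13:83714835-83732074, plus strand) and that of Mef2d exons 2 and 3 of 12 (chr3:87959731-87960279, plus strand). Over these 90 bases Mef2a differed from Mef2c at 16 and Mef2d at 19, yet 30 of 30 codons of Mef2a and 28 of 30 codons of Mef2d encoded the same residue as in Mef2c. The genes lie at chr7:74376049-74517744, chr13:83643033-83806684 and chr3:87946294-87976008.

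The class IIa deacetylases carry serines that CaMKII and related kinases phosphorylate and that 14-3-3 proteins then bind. The coding sequence around one such serine is shown because it is the point at which the kinases of the relay act on all 3 deacetylases. Capitals mark the serine codon.
Hdac4: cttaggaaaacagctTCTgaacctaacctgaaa
Hdac5: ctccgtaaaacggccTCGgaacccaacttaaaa
Hdac9: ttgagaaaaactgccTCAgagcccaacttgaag

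These stretches begin at codon 240 of Hdac4 (exons 6 and 7, chr1:93888172-93892646), codon 264 of Hdac5 (exons 9 and 10, chr11:102066926-102067116) and codon 215 of Hdac9 (exons 6 and 7, chr12:35092743-35114375), all on the minus strand of mm9. Each pair differed at 9 or 10 of the 33 bases, and all 11 codons encoded the same residues in the 3 genes. The genes span chr1:93829334-94044970, chr11:102055746-102091480 and chr12:34732451-35213754.

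CaMKII is held inactive by a segment after the catalytic domain, and phosphorylation of a threonine in it keeps the kinase active once calcium has fallen. That segment is shown for 3 of the 4 kinase genes, with the threonine codon in capitals.
Camk2b: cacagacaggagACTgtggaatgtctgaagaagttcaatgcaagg
Camk2d: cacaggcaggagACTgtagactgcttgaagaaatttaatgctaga
Camk2g: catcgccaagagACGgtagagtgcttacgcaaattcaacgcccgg

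All 3 lie in exon 11 and start at codon 283, at chr11:5888970-5889014 (minus strand), chr3:126500647-126500691 (plus strand) and chr14:21579631-21579675 (minus strand) of mm9. Camk2g differed from Camk2b at 17 and from Camk2d at 15 of 45 bases, and Camk2b and Camk2d differed from each other at 9. Of the 15 codons, 14 encoded the same residue in Camk2b as in either of the others, and 13 did in Camk2d and Camk2g. The genes span chr11:5869647-5966365, chr3:126299220-126547972 and chr14:21554097-21613310.

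By the GENCODE M1 annotation, the members of a family could be told apart by reads. The counts rest on RefSeq gene models, which were not compared in this way. Among the annotated coding transcripts no run of 100 bases was shared between members of a family, and the longest exact run in common was 35 bases, between Hdac5 and Hdac9. The gene length implied by each pair of count and FPKM differed between genes, from 2409 bases for Mef2d to 6361 for Mef2c, so that counts favour Mef2c over Mef2d and the comparison of genes with each other rests on FPKM.

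Per length, Mef2c was the most abundant of the 10 transcripts at E18.5, with 106 FPKM, and at PN2, with 142 FPKM, and Camk2a was the most abundant at PN28 and in the adult, with 107 and 125.3 FPKM. At PN14 Camk2a also led in both libraries, with 97.3 and 80.8 FPKM in replicates 1 and 2 against 79.7 and 79.5 for Mef2c, and in replicate 2 the values were nearly equal. Hdac9 or Hdac4 was lowest throughout. Hdac9 lay between 1.77 and 6.76 FPKM and Hdac4 between 4.08 and 8.38, and the pair changed places between E18.5, where Hdac9 was higher, and PN2, where the 2 values were 5.95 and 6.08. The closest relatives outside the set were Mef2b, at 0.25 to 0.52 FPKM, and Hdac7, a class IIa deacetylase known from endothelial cells, at 17.2 FPKM at PN2 and 4.65 in the adult.

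The proportions of the MEF2 transcripts varied little from library to library. Mef2c held 63.9% of the family's FPKM at E18.5, 67.5% at PN2, 63.0% and 64.0% for the PN14 libraries, 64.6% at PN28 and 64.4% for the adult. Mef2a, which is expressed in many tissues, stayed between 11.7% and 13.2%, and Mef2d between 20.0% and 24.5%. As shares of counts, which are not per length, Mef2a held 6.65% to 7.50%, Mef2d 9.41% to 11.98% and Mef2c 80.9% to 83.7%. The ratio of Mef2c to Mef2a ranged from 4.83 to 5.46 over the 6 libraries, and the PN14 pair alone had 5.06 and 5.46.

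**Figure D1:**
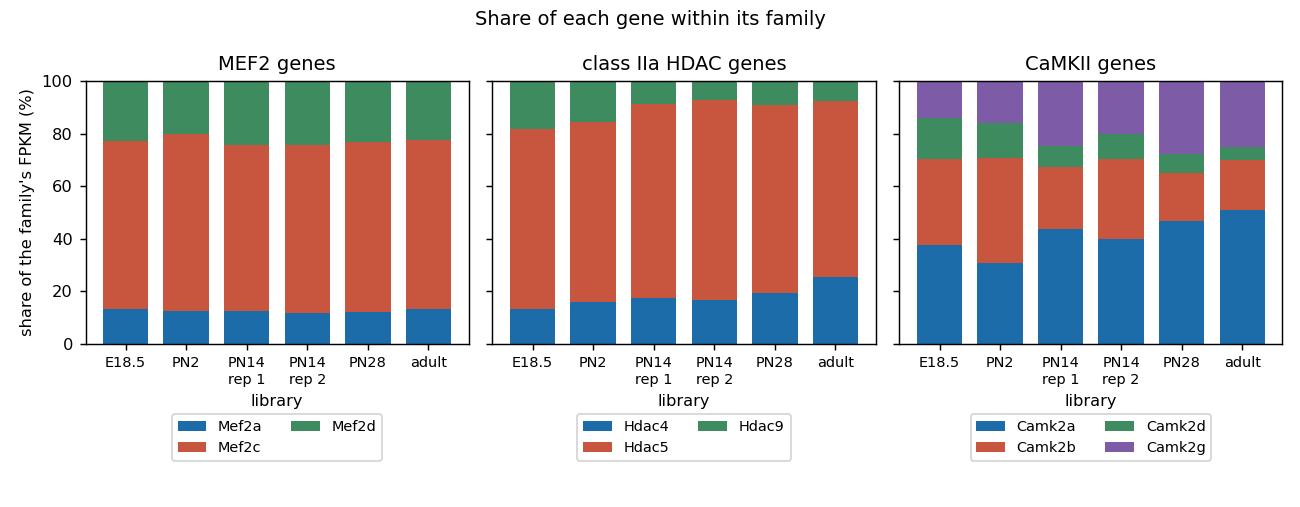
Stacked bars give the share (%) of each gene in the summed FPKM of the genes shown for its family (Hdac7 and Mef2b left out) in each of the 6 libraries, with PN14 replicates 1 and 2 side by side. The MEF2 bars look alike, with Mef2c at 63.0% to 67.5%, while Hdac9 has 18.2% at E18.5 and 7.5% in the adult and Camk2d 15.7% and 4.8%.

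Mef2c, which is needed for sarcomere integrity after birth, had 464 TMM CPM at E18.5, 622 at PN2, 601 and 501 for the PN14 libraries, 724 at PN28 and 978 for the adult. Mef2a had 42.7 TMM CPM at E18.5, 50.9 at PN2, 52.9 and 40.8 at PN14, 61.2 at PN28 and 88.6 for the adult. Mef2d, whose muscle splice form is known to promote late differentiation, had 62.9 TMM CPM at E18.5, 69.9 at PN2, 89.0 and 72.2 at PN14, 98.9 at PN28 and 130 for the adult. For all 3 genes the adult library was the highest and the PN28 library the next, and the PN2 value of Mef2a and Mef2c lay between the PN14 pair or above it.

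From E18.5 to adult, Mef2a rose by 1.05 on the log2 TMM scale (standard error 0.25, adjusted p = 0.0162) and Mef2d by 1.04 (0.25, adjusted p = 0.0157), in the edgeR quasi-likelihood test with Benjamini-Hochberg adjustment. Mef2c had a difference of the same size, 1.08, with a larger standard error of 0.42, and was not called (adjusted p = 0.0711, edgeR quasi-likelihood). DESeq2's Wald test, which called 38.5% of all genes, and edgeR's exact test, which called 48.3%, did call it, with adjusted p = 0.0030 and 0.0111. With library size alone the log2 differences of Mef2a, Mef2c and Mef2d were 0.03, 0.05 and 0.02 and none was called, so that their rise is a rise against the median gene, by 1.11, 1.13 and 1.10, and not a rise of their part in all counts. In FPKM, which follows library size, Mef2c stood at 106 at E18.5 and 110 in the adult and Mef2d at 37.9 and 38.4.

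Among Hdac4, Hdac5 and Hdac9, the share of Hdac9 was lower and that of Hdac4 higher in the later libraries. Hdac9 made up 18.2% of the summed FPKM of the 3 genes at E18.5, 15.6% at PN2, 8.7% and 7.3% at PN14, 9.3% at PN28 and 7.5% for the adult. Hdac4 made up 13.2%, 16.0%, 17.6%, 16.7%, 19.4% and 25.3% in the same order. The PN14 libraries lay 1.41 percentage points apart for Hdac9 and 0.817 for Hdac4, and both stages before PN14 lay above them for Hdac9, while for Hdac4 the PN28 and adult libraries did. Hdac5 had the highest share in every library, at 67.2% to 76.0%. Hdac7 is not in these sums. Counting it was a choice made after the data were seen. The class IIa FPKM of Hdac4, Hdac5, Hdac7 and Hdac9 then summed to 53.7 at E18.5 and 37.7 in the adult. In FPKM these sums follow library size. Of them Hdac5 held 47.5% and 58.9%, Hdac7 30.8% and 12.3%, Hdac9 12.6% and 6.57% and Hdac4 9.12% and 22.2%.

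Hdac4, which represses MEF2 and is known for its rise on denervation, had 13.1 TMM CPM at E18.5, 16.3 at PN2, 19.6 and 15.8 at PN14, 24.04 at PN28 and 45.7 for the adult. The adult library stood well apart from the others, and the PN14 pair lay on either side of PN2. From E18.5 to adult the gene rose by 1.80 on the log2 TMM scale (standard error 0.24, adjusted p = 0.0024, edgeR quasi-likelihood). From PN28 to adult the difference of 0.93 did not pass (unadjusted p = 0.0074, adjusted p = 0.126, edgeR quasi-likelihood). Under library size the change over the whole period was 0.78 and was not called. Set against the median gene it was 1.85, a value that is nearly the same on either scale by construction.

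Hdac9, whose short splice product lacks the deacetylase domain and binds MEF2 in muscle, ran the other way early on. It had 22.7 TMM CPM at E18.5, 20.2 at PN2, 11.95 and 8.41 at PN14, 14.1 at PN28 and 16.4 for the adult. The PN14 libraries were the lowest pair, and the adult library stood between them and PN2. From PN2 to PN14 the log2 difference of -0.99 (standard error 0.24, adjusted p = 0.0305, edgeR quasi-likelihood) passed on p and fell just short of 2-fold, so it was not called. With library size alone Hdac9 was called in that interval (-1.66) and from E18.5 to adult (-1.49), and it was also called from PN2 to PN14 without the filter on low counts (-1.001) and with a filter at a mean of 1 CPM (-1.03).

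Hdac5, which represses MEF2 and is known as a target of several activity-dependent kinases, had 65.9 TMM CPM at E18.5, 67.1 at PN2, 79.3 and 69.0 at PN14, 85.1 at PN28 and 117 for the adult. Its log2 difference of 0.82 from E18.5 to adult passed on p (adjusted p = 0.0252, edgeR quasi-likelihood) and was under 2-fold, and with library size alone it turned to -0.20.

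**Figure D2:**
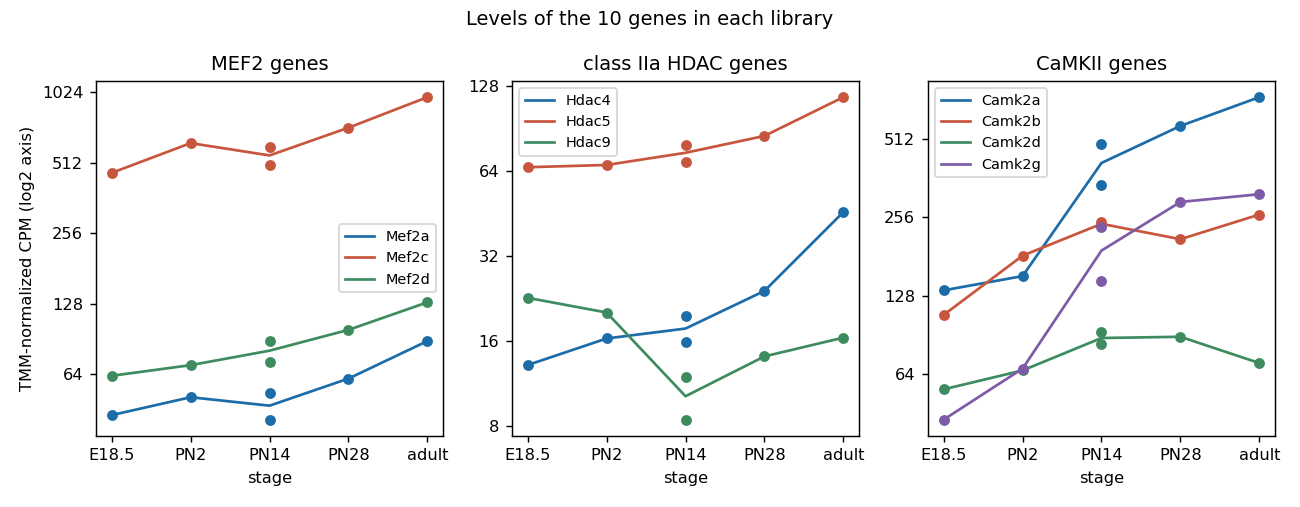
Points give the TMM CPM of each gene in each of the 6 libraries on a log2 axis, by stage, and lines join the single libraries and the mean of the PN14 pair. Camk2a and Camk2g climb most between PN2 and PN14, with both PN14 points above the PN2 point, and Hdac9 is the only gene whose adult point lies below its E18.5 point on this scale.

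The widest differences over the whole period were those of Camk2g and Camk2a. Camk2g, a form found in many tissues, had 42.7 TMM CPM at E18.5, 67.1 at PN2, 236 and 146 for the PN14 libraries, 293 at PN28 and 314 for the adult. Both PN14 libraries lay above PN2 and below PN28, and the pair itself differed by 0.69 on the log2 scale. The gene rose by 1.51 from PN2 to PN14 (standard error 0.36, adjusted p = 0.0282) and by 2.88 from E18.5 to adult (0.42, adjusted p = 0.0031), in the edgeR quasi-likelihood test, and over the whole period this is a 7.36-fold difference. That fold is on the TMM scale, and with library size alone the log2 difference from E18.5 to adult was 1.86. With 1 of the PN14 libraries at a time, and no test, the log2 difference from PN2 was 1.81 for replicate 1 and 1.12 for replicate 2.

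Camk2a, the form best known from neurons, whose gene also yields the muscle anchoring protein alpha-KAP (chr18:61085272-61147806, plus strand), had 134 TMM CPM at E18.5, 152 at PN2, 489 and 339 at PN14, 575 at PN28 and 742 for the adult. The order of the libraries was the same as for Camk2g, and the libraries before PN14 lay below all those from PN14 on. The same held for Mef2d, Hdac5, Camk2b and Camk2d, and the reverse for Hdac9. How many of all genes show such a separation was not counted. It rose by 1.45 from PN2 to PN14 (standard error 0.37, adjusted p = 0.0342) and by 2.47 from E18.5 to adult (0.42, adjusted p = 0.0053), in the edgeR quasi-likelihood test. Reads from the kinase and from alpha-KAP, like those from splice forms of the other genes, are not separated in a count per gene. With library size alone the log2 difference of Camk2a from E18.5 to adult was 1.44. With 1 PN14 library at a time the log2 difference from PN2 was 1.68 and 1.16.

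Camk2b, which has a muscle splice form, had 108 TMM CPM at E18.5, 182 at PN2, 245 and 239 at PN14, 211 at PN28 and 262 for the adult. Its PN14 libraries were nearly equal, and its step from E18.5 to PN2 was the widest of the 10 genes, at 0.76 on the log2 scale, without passing the test (unadjusted p = 0.0341, adjusted p = 0.673, edgeR quasi-likelihood). From E18.5 to adult it rose by 1.28 (standard error 0.28, adjusted p = 0.0113, edgeR quasi-likelihood). Under library size that difference was 0.26 and was not called.

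Camk2d, the main form of the heart, had 55.8 TMM CPM at E18.5, 66.0 at PN2, 92.8 and 83.1 at PN14, 88.9 at PN28 and 70.4 for the adult. Its adult library lay below PN28 and the PN14 pair, unlike those of Camk2a, Camk2b and Camk2g. No interval passed the test, and the log2 difference from E18.5 to adult was 0.34 (adjusted p = 0.236, edgeR quasi-likelihood) and turned to -0.69 with library size alone.

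Within the CaMKII family, Camk2a and Camk2g made up more of the summed FPKM from PN14 on. Reads of alpha-KAP are not separated from those of the kinase in the Camk2a values. Camk2a and Camk2g together held 51.7% of the family's FPKM at E18.5, 46.8% at PN2, 68.4% and 60.1% for the PN14 libraries, 74.5% at PN28 and 76.0% for the adult. Both PN14 values were above both earlier ones, by at least 8.42 percentage points, and the PN14 libraries lay 8.22 apart. The share of Camk2b was 32.6% at E18.5, 39.8% at PN2, 23.4% and 30.1% at PN14, 18.3% at PN28 and 19.2% for the adult, and that of Camk2d ran from 15.7% down to 4.8%. The ratio of Camk2g to Camk2d went from 0.898 at E18.5 to 1.19 at PN2, 2.99 and 2.06 at PN14, 3.87 at PN28 and 5.23 for the adult. Summed over the family, FPKM was 122 at E18.5 and 246 in the adult. The MEF2 sum was 166 and 171, and the sum of Hdac4, Hdac5 and Hdac9 was 37.2 and 33.1. These sums follow library size and so depend on the scaling between libraries. The shares and ratios come from within a library and do not depend on that scaling. With 1 library in most stages no test was made of the sums, shares and ratios.

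Over all 10 genes, none was called from E18.5 to PN2, where the edgeR quasi-likelihood test called 0.0296% of all genes. It also called none from PN14 to PN28, against 0.0178% of all genes, and none from PN28 to adult, against 0.521%. At an unadjusted p under 0.05 there were 1, 0 and 1 of the 10 in these intervals, and 1121, 1420 and 3091 of all 16882 genes. The Wald test of DESeq2 and the exact test of edgeR called 0 of the 10 in each of them as well. From PN2 to PN14 the test called 2 of the 10, Camk2a and Camk2g, both higher at PN14, against 23.0% of all genes, of which 11.8% rose and 11.2% fell. The share of the 10 is close to that of all genes.

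From E18.5 to adult, 6 of the 10 rose (Mef2a, Mef2d, Hdac4, Camk2a, Camk2b and Camk2g) and none fell, against 44.9% of all genes called, of which 21.4% rose and 23.6% fell. The median log2 fold change of the 10 was 1.06, and that of all genes -0.05. With library size alone, where 53.6% of all genes were called, Camk2a and Camk2g rose and Hdac9 fell. From PN2 to PN14 library size alone called 34.5% of all genes and, of the 10, Hdac9 as falling, while Camk2a and Camk2g kept positive log2 differences of 0.77 and 0.83 under 2-fold. A change of scaling shifts all genes and their median nearly alike, so the distance from the median gene is nearly the same by construction. From E18.5 to adult Camk2g stood 2.93, Camk2a 2.52, Hdac4 1.85 and Hdac9 -0.41 from the median gene.

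**Figure D3:**
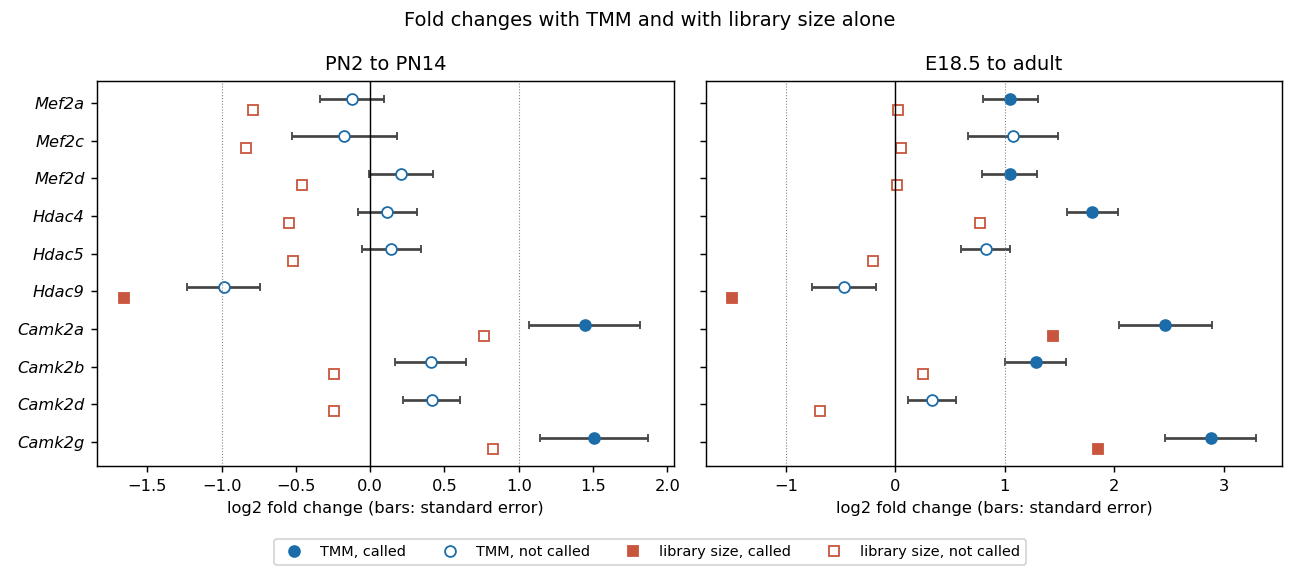
Circles give the log2 fold change of each gene with TMM, with the standard error as a bar, and squares the same with library size alone, from PN2 to PN14 and from E18.5 to adult. Filled marks passed an adjusted p under 0.05 and at least a 2-fold change, and dotted lines mark 2-fold. Every square lies to the left of its circle. From E18.5 to adult Hdac5 goes from 0.82 to -0.20 and Camk2d from 0.34 to -0.69 with library size, while Camk2a and Camk2g are filled on both scales.

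Counted without a test, at least 2-fold in TMM CPM among genes with 1 CPM or more, 0 of the 10 changed between E18.5 and PN2 (3.44% of all genes), 2 between PN2 and PN14 (27.0%), 0 between PN14 and PN28 (3.30%), 0 between PN28 and adult (10.2%) and 7 between E18.5 and adult (49.6%). The 7 are the called genes and Mef2c. When PN14 was represented by replicate 1 alone the count from PN2 was 2, and with replicate 2 alone it was 3, with Hdac9 added at -1.25. With replicate 2 alone Camk2g also reached 2-fold from PN14 to PN28, at 1.01, against 0.30 with replicate 1 alone.

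All 10 genes were lower in PN14 replicate 2 than in replicate 1 on the TMM scale, by 0.04 on the log2 scale for Camk2b to 0.69 for Camk2g, where the median difference of all genes between the libraries was -0.003 and its median size 0.18. The libraries also differed in other cells' markers. The summed FPKM of 6 Schwann cell markers was 218 in replicate 1 and 861 in replicate 2, that of 6 proliferation genes 12.3 and 31.2, and that of 8 muscle fibre markers 77267 and 61187. The part of these differences in the levels of the 10 genes was not tested.

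Marker lists moved with stage as well, and in bulk RNA fewer cells of a type and less RNA per cell cannot be told apart. From E18.5 to adult, 5 of 5 satellite cell markers fell (summed FPKM 74.4 and 8.12), as did 6 of 6 proliferation genes (152 and 0.45), 4 of 6 fibroblast and tendon markers (4452 and 439) and 5 of 5 erythroid markers (8424 and 370), while 2 of 8 muscle fibre markers and 4 of 5 adipocyte markers (374 and 365) rose and none fell. Of 6 Schwann cell markers 2 rose and 1 fell (67.0 and 157). Their part in the levels of the 10 genes was not tested. For Camk2a, which neurons express, 6 neuronal markers summed to 8.07 FPKM at E18.5 and 2.11 in the adult. Stmn2 had 4.64 and 1.99 FPKM and Nefl 2.83 and 0.04 in these libraries, while Snap25 and Rbfox3 never exceeded 0.19 FPKM. Camk2a stood at 45.9 and 125.3 FPKM in the same libraries, and a neuronal part in its level was not tested. For Mef2c and Hdac7, which endothelial cells express, the 6 endothelial markers summed to 185 FPKM at E18.5, 188 at PN2, 175 and 261 at PN14, 128 at PN28 and 69.0 for the adult, and none of the 6 was called over the period. With TMM, Hdac7 had a log2 difference of -0.82 from E18.5 to adult (adjusted p = 0.0187, edgeR quasi-likelihood), under 2-fold. With library size alone, which the FPKM sums of the markers follow, its log2 difference was -1.85 and was called as falling. The calls of the endothelial markers are with TMM.

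Upstream of the kinases, calmodulin is made from several genes for the same protein. Calm3 had 139 FPKM at E18.5 and 222 in the adult and rose by 1.70 on the log2 TMM scale (adjusted p = 0.0110, edgeR quasi-likelihood). With library size alone its log2 difference was 0.68 and was not called. Calm2, with 296 FPKM at E18.5, had a log2 difference of 0.01 (147 FPKM in the adult). With library size this turned to -1.01, which was called as falling. Of the calmodulin-like genes, Calml4 fell by 2.999 and Calml3, at no more than 1.13 FPKM, by 1.90. The CaMKII inhibitors Camk2n1 and Camk2n2 stayed at 1.35 to 3.09 and 0.82 to 1.41 FPKM without a call. Camkk1, a kinase that activates the related CaMKI and CaMKIV, fell by 3.20 (7.42 and 0.40 FPKM).

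Of 14 other kinases of the class IIa deacetylases, 2 rose and 5 fell from E18.5 to adult (1 and 9 with library size alone), close to the 44.9% of all genes called, with a median log2 fold change of -0.17. Prkaa2, the AMPK catalytic subunit abundant in muscle, rose by 3.04 (11.2 FPKM at E18.5, 45.01 in the adult), and it had 13.3 FPKM at PN2 and 31.0 and 24.5 for the PN14 libraries. Sik1, a salt-inducible kinase, fell by 2.14 (28.1 and 3.13 FPKM), and Camk1g fell by 3.24 from 1.35 FPKM. Of 7 genes of 14-3-3 proteins, 1 rose and 3 fell (0 and 5 with library size alone), also beside 21.4% and 23.6% of all genes. Ywhaz fell by 1.79, Ywhaq by 1.74 and Ywhah by 1.19 on the log2 TMM scale, with Ywhaz at 92.7 FPKM at E18.5 and 13.3 in the adult.

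Among the 8 other histone deacetylases, Hdac3 rose and Hdac1 and Hdac11 fell, 3 of 8 against 44.9% of all genes, with a median log2 fold change of -0.01. Hdac3, the catalytic partner of class IIa proteins in the corepressor complex, rose by 1.33 on the TMM scale (adjusted p = 0.0063, edgeR quasi-likelihood) and by 0.31, not called, with library size alone, with 33.9 FPKM at E18.5 and 41.9 in the adult. Hdac1 fell by 1.77 (36.3 and 5.21 FPKM) and Hdac11 by 1.26. Of 11 corepressor partners, 2 rose and 2 fell (0 and 5 with library size alone), against the same 44.9%. Gps2, a subunit of that complex, rose by 1.76, with 18.8 FPKM at E18.5 and 31.2 in the adult, and Cbx5, the heterochromatin protein HP1 alpha, fell by 1.39.

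Among 17 genes listed as MEF2 cofactors and kinases, which include the MEF2 gene Mef2b, 5 rose and 4 fell with TMM. Over all genes 21.4% rose and 23.6% fell. With library size alone 0 of the 17 rose and 9 fell. Mapk7, the ERK5 kinase that activates MEF2, fell by 2.15 (13.8 and 1.52 FPKM), Vgll3, a TEAD cofactor, by 2.46 and Tead4 by 2.59. Mef2b was called as rising by 1.62 on the TMM scale from counts of 54 and 74, and was not called with library size (0.60).

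Of 22 genes described as MEF2 targets in muscle, 10 rose and 3 fell from E18.5 to adult, and 6 rose and none fell from PN2 to PN14, where 21.4% of all genes rose and 23.6% fell over the first comparison and 11.8% and 11.2% over the second. Under library size these counts were 9 and 3, and 9 and 1. The median log2 fold changes of the list were 1.68 and 1.22, against -0.05 and -0.01 for all genes. Mb, which encodes the oxygen store myoglobin, rose by 7.63 (18.9 FPKM at E18.5, 78.8 at PN2, 2163 and 910 at PN14, 1699 at PN28 and 1812 for the adult), and Xirp2, an actin-binding protein, by 5.66 (7.55 and 187 FPKM). Myog, the myogenin gene of differentiating myoblasts, fell by 4.57, with 210 FPKM at E18.5, 152 at PN2, 40.6 and 74.1 at PN14, 26.2 at PN28 and 4.34 for the adult. Many of these genes are also markers of the mature fibre, and the list does not separate action of MEF2 from that maturation.

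Of 7 genes tied to HDAC4 in denervated muscle, 2 rose and 3 fell from E18.5 to adult (2 and 4 with library size alone), against 21.4% and 23.6% of all genes. Chrng, the fetal acetylcholine receptor subunit, had 83.6 FPKM at E18.5, 56.1 at PN2, 0.89 and 1.92 at PN14, 0.60 at PN28 and 0.13 for the adult, and fell by 8.29 on the log2 TMM scale. Fbxo32, the ubiquitin ligase atrogin-1, had 1.90 FPKM at E18.5, 10.9 at PN28 and 70.0 for the adult, and rose by 6.23.

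A search of promoter windows bears on whether the relay's own genes carry its DNA element. RefSeq promoter sequences (GRCm38.p6, 250 bases before to 50 after the start) were held for 8 of the 10 genes, with 11 windows. None was held for Camk2a or Camk2g, so these genes were not searched. The MEF2 box, a palindromic consensus read on both strands, was found in 2 of the 11, those of Mef2a and Hdac5, and in 3.19% of the 32851 promoters of all genes. The 30 bases around each are shown with the box in capitals.
Mef2a: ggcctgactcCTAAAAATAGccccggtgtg
Hdac5: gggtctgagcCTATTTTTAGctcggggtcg

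They lie at chr7:67372841-67372870 and chr11:102230173-102230202 of GRCm38.p6, both on the minus strand, and the boxes begin 2 and 20 bases before the start site. The E-box CAGCTG, a palindrome that myogenic bHLH factors bind, was in both windows of Hdac9 and in no other of the 11, against 16.3% of all promoters. A match says that these letters are present.

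For the gene of each family with the widest range, the closest profiles over the 6 libraries were sought on log2 TMM CPM among 8839 genes. Mef2a was most like Ddi2 (Pearson r = 0.998), Gars (0.997) and Mllt3 (0.995), Hdac4 like Rcor3, Rapgef1 and Dcaf5 (0.998 to 0.999) and Camk2g like Kif1b, Ppp2r3c and Acad8 (0.999). The likeness is one of shape and not of size: Kif1b had 63.0 FPKM at E18.5 and 78.8 in the adult, where Camk2g had 17.2 and 62.0, and 1645 genes exceeded r = 0.95 with Camk2g. All points share the 6 TMM factors.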

How the data were processed

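Polyadenylated RNA of mouse gastrocnemius was sequenced by the authors, aligned to mm9 with TopHat2 2.0.5 and quantified on RefSeq genes with RSEM. The deposited expected counts are not normalized, and the deposited FPKM values were scaled by the authors to gene length and library total. A count of 3 equals 0.0190 to 0.0239 CPM.

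Expected counts were rounded and analysed with edgeR 4.0.16 in R 4.3.3 (TMM, filterByExpr, quasi-likelihood test, 5 stages as groups, Benjamini-Hochberg adjustment over 16882 genes). With 1 residual degree of freedom, the prior weighed 4.86 degrees of freedom, and the common biological coefficient of variation came to 0.188. Fold counts without a test used log2(TMM CPM + 0.1). Standard errors are the log2 fold change divided by the root of F. The test was tested on simulated data.

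The members and lists were chosen with earlier results of these data known. All 10 members are named, and of each pathway list the 3 called genes with the largest change from E18.5 to adult that reach 1 FPKM, the calmodulins and CaMKII inhibitors, Mef2b, Hdac7, and the 3 closest profiles to the widest-ranging member of each family (mean of at least 10 CPM). Alternatives were library size alone, DESeq2 1.42.0 size factors and Wald test, edgeR's exact test, other filters, pseudocounts and floors, shares of counts in place of FPKM, and leaving out a PN14 library. Sequences were read with Python 3.11.15 and Biopython 1.88 from mm9 with GENCODE M1, and promoters came from RefSeq. GENCODE M1 lists a second short entry named Hdac4, which is not shown. A gene that the rule names is not reported here.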

Additional observations from a re-analysis of the deposited data

How the results depend on the processing

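The log2 fold changes that library size alone turned were, between PN2 and PN14, those of Mef2d (-0.46), Hdac4 (-0.55), Hdac5 (-0.52), Camk2b (-0.25) and Camk2d (-0.24), between PN14 and PN28 those of Hdac5 (-0.027) and Camk2d (-0.21), between PN28 and adult that of Camk2g (-0.039), and between E18.5 and adult those of Hdac5 (-0.20) and Camk2d (-0.69). It called 1 of the 10 genes from PN2 to PN14 and 3 from E18.5 to adult, and its 2-fold counts without a test were also 1 and 3. DESeq2's size factors changed no call or direction of the 10 in any comparison. Without a test, they gave 3 of the 10 at 2-fold or more from PN2 to PN14, against 2 with TMM. Genes called from E18.5 to PN2 were 5 in the test reported, 241 with library size, 164 with DESeq2's Wald test, 346 with the exact test and 97 without a filter. Between PN14 and PN28 they were 3, and 262, 135, 241 and 56 in the same order, and from PN28 to adult 88, and 868, 817, 1146 and 835, with 13 at a mean of at least 1 CPM. That filter left 4 of the 10 genes called from E18.5 to adult, since Mef2a (0.97) and Mef2d (0.96) fell short of 2-fold. Without a test, the 2-fold genes from E18.5 to PN2 were 454, and 274 with a pseudocount of 1, 189 with a floor of 10 CPM and 698 with no floor. A floor of 10 CPM gave 2358 between PN2 and PN14, 226 between PN14 and PN28 and 592 between PN28 and adult, and a pseudocount of 1 gave 280 from PN14 to PN28. Leaving out a PN14 library gave 265 to 921 genes and 0 to 1 of the 10 from PN14 to PN28, and 3031 to 4160 genes and 2 to 3 of the 10 from PN2 to PN14, with no test, because no residual degree of freedom remained. Without replicate 2 the log2 differences of Mef2a between PN2 and PN14 (0.05) and of Camk2d between PN14 and PN28 (-0.08) turned, and without replicate 1 that of Hdac4 between PN2 and PN14 (-0.05), none of them called. As shares of counts in place of FPKM, Mef2a and Mef2d were lower and Mef2c higher in every library, and counting Hdac7 in the class IIa family, added after the data were seen, lowered the shares of Hdac4, Hdac5 and Hdac9 in every library. Shares of counts are not per length, and a gene added to a sum lowers the shares of the others by definition. The cause of the other differences between settings was not tested. No paired analysis was possible because PN14 is the only stage with more than 1 library, so that no stages share several replicate numbers.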
